A study of Mus musculus with 12 samples.

Results

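The major urinary protein (Mup) genes examined here are the 10 rows of the deposited liver tables with the names Mup1, Mup3, Mup7, Mup11, Mup12, Mup14, Mup15, Mup16, Mup20 and Mup21, of 57180 gene rows in all. They were chosen by name, with earlier results of these data known, so counts of them called lower describe this set only. A further 39 rows carry a name made of Mup and a number or of Mup-ps, the prefix of the pseudogenes, and are given only by counts and for the few that were expressed. All 10 genes passed the filter on low counts, as did 19355 genes in all.

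The tables hold RNA sequencing of livers from 12 mice in 4 groups of 3, females and males of the genotypes named Het and KO, and no age is given for single mice. All 12 mice were Csa-/- (Csa is Ercc8, a gene of transcription-coupled DNA repair) and all received AAV9-CSA, a vector carrying human CSA cDNA behind a ubiquitous promoter, injected into the cerebral ventricles as newborns. KO mice were killed at the humane endpoint of their disease, which was set by a severely hunched posture and tremor, and Het mice were treated littermates of matched age without signs of disease. Genotype and end-stage disease therefore cannot be told apart. For Xpa, a DNA repair gene, the sources differ: the series design and the sequencing methods of the study give Xpa+/+ for KO and Xpa+/- for Het, while other passages of the same study describe the diseased mice as Xpa-/-. In these libraries Xpa ranged from 3.13 to 6.32 CPM (counts scaled to the same library size) in the 6 Het livers and from 0.990 to 1.82 CPM in the 6 KO livers, and the groups are called here by their names KO and Het. Mouse Ercc8 was counted at 5.12 to 8.76 CPM in Het and 14.7 to 34.3 CPM in KO livers. The libraries held 30044812 to 43634073 counts and mitochondrial genes took 4.62 to 6.71% of them. Each group held 3 mice, and p-values weigh group differences against a spread between mice that was estimated from all 12 livers together.

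Major urinary proteins are small carrier proteins of the lipocalin family. Hepatocytes secrete them into the blood, the kidney filters them, and in the urine they bind and slowly release volatile pheromones. Their liver mRNA is known to be higher in males than in females and to depend on the pulsed, male pattern of growth hormone secretion, which acts through the growth hormone receptor and the transcription factor STAT5B. Mup20 encodes darcin, a male urinary protein that attracts females, and Mup1 has also been described as a circulating regulator of glucose metabolism.

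The genes lie in tandem, all on the minus strand, between 60066445 and 62069175 on chromosome 4 (GRCm39, GENCODE M39 annotation), a span of 2003 kb. From the end nearest the chromosome start, Mup7 (chr4:60066445-60070490) was followed by Mup1 (chr4:60453986-60458057), Mup11 (chr4:60614440-60618509), Mup12 (chr4:60693376-60697325), Mup14 (chr4:61256012-61260077), Mup15 (chr4:61354000-61358062) and Mup16 (chr4:61433825-61437853). Beyond these lie Mup3 (chr4:61947447-62005620), Mup20 (chr4:61968464-61972395) and Mup21 (chr4:62066056-62069175). Mup20 lies inside the annotated span of Mup3 on the same strand. The first 7 genes are near copies of each other. Over their 21 pairs, the coding sequences were 98.3 to 99.6% identical, whereas Mup20 was 90.1 to 91.3%, Mup3 82.6 to 83.8% and Mup21 71.4 to 72.3% identical to these copies. The coding stretch below (in Mup7 chr4:60070229-60070288), 60 bases inside 1 exon of Mup7, is shown because it holds the most differences among the close copies. Each line reads 5′ to 3′ on the coding strand, and capitals mark the bases unlike Mup7.
Mup7: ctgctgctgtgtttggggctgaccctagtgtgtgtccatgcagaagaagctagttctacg
Mup14: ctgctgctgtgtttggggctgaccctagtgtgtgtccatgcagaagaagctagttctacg
Mup12: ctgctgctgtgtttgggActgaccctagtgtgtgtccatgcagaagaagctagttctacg
Mup11: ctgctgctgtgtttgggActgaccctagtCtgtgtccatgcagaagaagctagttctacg
Mup1: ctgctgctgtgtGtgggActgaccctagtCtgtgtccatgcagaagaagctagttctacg
Mup15: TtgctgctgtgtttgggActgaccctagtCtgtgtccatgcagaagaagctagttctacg
Mup16: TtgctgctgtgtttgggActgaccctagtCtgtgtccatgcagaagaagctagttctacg
Mup20: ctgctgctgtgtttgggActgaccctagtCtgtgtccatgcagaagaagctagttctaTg
Mup3: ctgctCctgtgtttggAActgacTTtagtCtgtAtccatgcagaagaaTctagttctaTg
Mup21: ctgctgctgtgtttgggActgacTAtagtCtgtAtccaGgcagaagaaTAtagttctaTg
Mup14 did not differ from Mup7 in this stretch, Mup12 differed at 1 base, Mup11 at 2 and Mup1, Mup15, Mup16 and Mup20 at 3 each, while Mup3 and Mup21 differed at 9. A read from such a stretch can fit several genes. Of all windows of the annotated transcripts as long as 1 read, 100% of those of Mup3 and Mup21 and 96.7% of those of Mup20 were found in no other Mup gene. Among the 7 close copies that share ran from 12.5% for Mup12 and 17.0% for Mup15 to 51.1% for Mup7. These windows came from a later GENCODE release than the one with which the authors counted reads. By this later release, values of Mup3, Mup20 and Mup21 rest mostly on sequence of their own, and values of single close copies are uncertain. For that reason the copies are also given as a sum.

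Promoters were available for Mup3, Mup7, Mup11, Mup14, Mup15 and Mup21 in the RefSeq table (GRCm38.p6). The 250 bases before the annotated start are shown for a pair of close copies and for the divergent Mup3 and Mup21, because these genes were all lower in KO males. Capitals mark the longest run that is identical in all 6 promoters.
Mup7 (chr4:60070476-60070725): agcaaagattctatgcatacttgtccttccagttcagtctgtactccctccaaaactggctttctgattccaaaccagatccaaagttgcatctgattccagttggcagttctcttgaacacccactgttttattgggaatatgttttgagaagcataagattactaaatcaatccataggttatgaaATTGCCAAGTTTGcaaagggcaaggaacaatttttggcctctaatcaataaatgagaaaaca
Mup11 (chr4:60662396-60662645): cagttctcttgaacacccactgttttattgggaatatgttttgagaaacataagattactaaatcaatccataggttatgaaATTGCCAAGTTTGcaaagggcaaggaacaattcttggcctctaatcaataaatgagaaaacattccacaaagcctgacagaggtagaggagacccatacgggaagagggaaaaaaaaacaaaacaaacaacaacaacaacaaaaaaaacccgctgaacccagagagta
Mup3 (chr4:62087318-62087567): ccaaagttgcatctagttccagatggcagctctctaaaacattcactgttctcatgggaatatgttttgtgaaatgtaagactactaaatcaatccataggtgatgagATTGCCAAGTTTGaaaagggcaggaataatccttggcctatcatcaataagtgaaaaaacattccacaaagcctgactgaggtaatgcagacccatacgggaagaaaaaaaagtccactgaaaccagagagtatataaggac
Mup21 (chr4:62150842-62151091): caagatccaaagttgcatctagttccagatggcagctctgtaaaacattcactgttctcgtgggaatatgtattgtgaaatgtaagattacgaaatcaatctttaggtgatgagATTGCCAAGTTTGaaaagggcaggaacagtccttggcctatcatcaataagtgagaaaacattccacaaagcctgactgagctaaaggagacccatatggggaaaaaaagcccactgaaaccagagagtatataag
This run of 13 bases was found in the same span of 12 of the 32851 promoters of the table, counting both strands, and all 12 were among the 14 promoters of genes named Mup and a number. Its first base lay 62 bases before the annotated start in Mup7, 142 in Mup3 and 168 in Mup11. Its distance to the annotated start thus differed between genes. The bases on both sides of the run were nearly the same in Mup7 and Mup11. The Mup11 sequence runs on past the end of the Mup7 sequence. Windows set by the annotated start therefore covered different parts of the shared sequence. Of the motifs searched on both strands in the 300 bases from 250 before to 50 after the start, none of the 6 promoters held TTCNNNGAA (STAT, 8.30% of all promoters), TTGCNNAA (C/EBP, 10.8%), CAAAGTCCA (HNF4, 0.475%) or ACANNNTGT (glucocorticoid receptor, 6.85%). Nor did they hold the FOXA motif TGTTTAC, present in 3.65% of all promoters. The exact TATA box letters TATAAA, present in 13.6%, were likewise not found in these 6, though 2 of the 14 Mup promoters held them. Variants of the TATA box with other letters were not searched. The absence of a match says only that these letters were not in this window, which is placed by the annotated start of each gene.

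In KO livers most Mup mRNA was missing. Summed over the 10 genes, the counts came to 1058, 1100 and 1215 CPM in the Het females and to 59.3, 132 and 229 CPM in the KO females. Het males had sums of 19429, 12401 and 11042 CPM, while the KO males had 995, 402 and 184 CPM. The groups did not overlap in either sex, and the highest KO male lay below every Het female. The sum was 8.03-fold lower in KO females (log2 fold change -3.01, SE 0.62) and 27.1-fold lower in KO males (-4.76, SE 0.67). Without KO_M_118, the KO male with the highest sum, the male difference was 48.7-fold. Put as a share of all counts, Mup mRNA took 1.14 to 1.84% of a Het male library, 0.108 to 0.128% of a Het female library, 0.0186 to 0.102% of a KO male library and 0.00603 to 0.0238% of a KO female library. In bulk tissue, fewer cells of a type and less RNA per cell cannot be told apart. The summed level of 7 hepatocyte markers found in the table, among them Alb, Apoa1 and Ttr, ranged from 65653 to 93315 CPM in Het livers and from 86610 to 145100 CPM in KO livers. Over both sexes 2 of these 7 were called higher and 1 lower, beside 11.4% of all genes called higher and 10.3% called lower.

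By edgeR's quasi-likelihood test, adjusted over all genes tested, 7 of the 10 genes fell in KO females, where 4.90% of all genes were called lower, and 9 of the 10 fell in KO males, where 2.90% were. No gene of the 10 was called higher, beside 4.93% of all genes in females and 4.01% in males. The median log2 fold change of the 10 was -4.33 in females and -6.36 in males, beside -0.01 and 0.01 over all genes tested. Averaged over the sexes 8 fell, with 10.3% of all genes called lower, and 9 had an unadjusted p under 0.05. The ranges of KO and Het livers did not overlap for the same 7 genes in females (15.3% of all genes lay lower without overlap) and the same 9 in males (15.7%). Across both sexes together, every KO liver lay below every Het liver for 5 genes, Mup3, Mup11, Mup14, Mup15 and Mup16 (4.98%). Mup15 is in the counts of 7, 9, 8 and 5, though it passed the filter on low counts through Het livers alone. The number called in females was 3 without KO_F_108 and 4 without KO_F_112, and it was 5 to 7 without any other single liver.

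**Figure D1:**
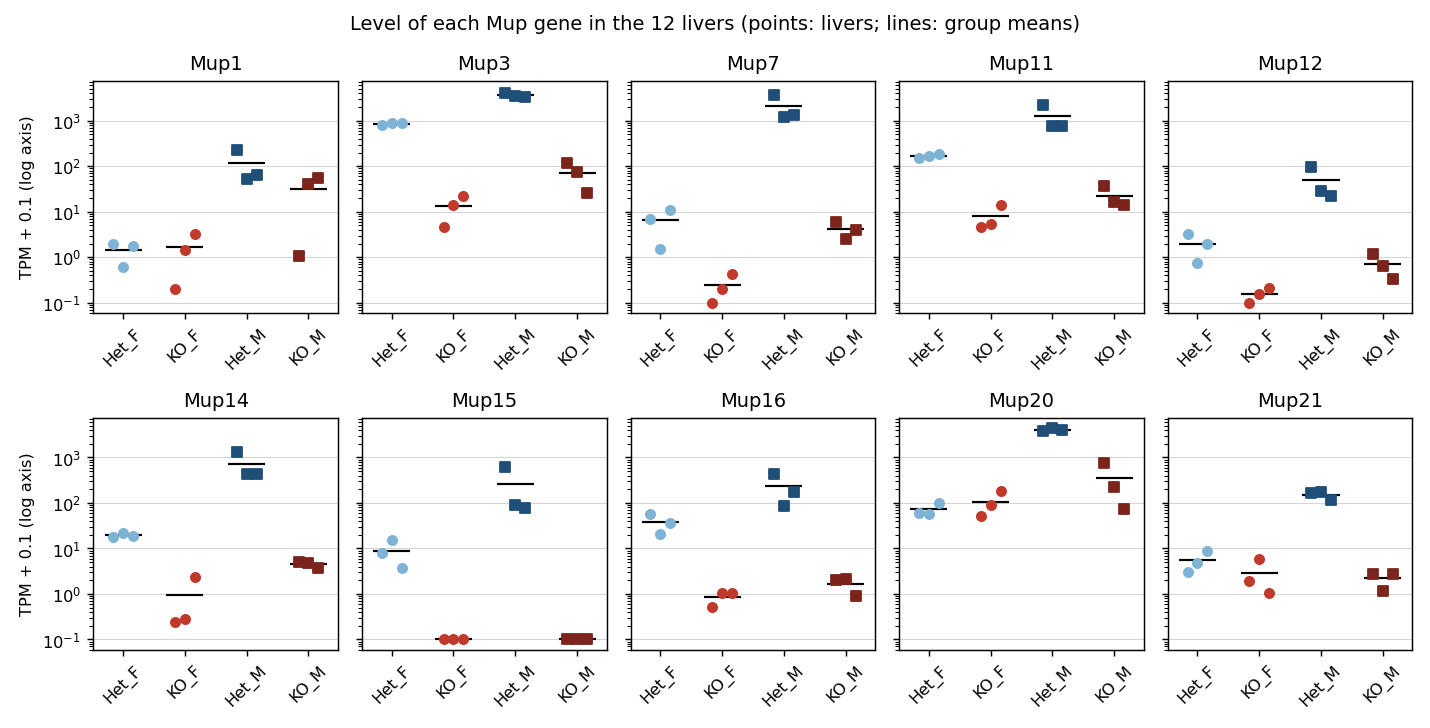
Level of each of the 10 Mup genes in TPM plus 0.1 on a log axis, with 1 point for each of the 3 livers of a group and a line at the group mean. For Mup3, Mup11, Mup14, Mup15 and Mup16 every KO liver lies below every Het liver, while the females overlap for Mup1, Mup20 and Mup21.

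Mup11, the close copy with the highest mean level in Het females, fell in both sexes. Its level was 149, 164 and 182 TPM (transcript abundance scaled for transcript length and library size) in Het females and 4.51, 5.19 and 13.9 TPM in KO females. In males it was 2270, 768 and 774 TPM in Het and 36.5, 16.3 and 14.3 TPM in KO. All KO livers lay below all Het livers, of either sex. The log2 fold change was -4.34 in females (SE 0.65, adjusted p = 0.00593) and -6.47 in males (SE 0.71, adjusted p = 0.000977). It was -5.03 in females without KO_F_123 and -5.69 in males without Het_M_119.

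Mup7 had the highest mean of the close copies in Het males. Its level was 6.84, 1.43 and 10.9 TPM in Het females, and KO females held 0, 4 and 15 counts of it, or at most 0.326 TPM. In Het males it was 3678, 1239 and 1339 TPM, and in KO males 5.79, 2.37 and 3.87 TPM. KO males thus fell into the range of Het females. The log2 fold change was -9.07 in males (SE 1.07, adjusted p = 0.00172) and -4.79 in females (SE 0.98, adjusted p = 0.0198). The female call was lost without KO_F_108 (adjusted p = 0.0675), without KO_F_112 (0.0617) and with females fitted alone (0.0707). The female value was -5.80 without KO_F_123 and -4.11 without Het_F_126, and the male value -8.34 without Het_M_119.

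Mup15 was the copy with no reads at all in KO livers. Het females held 272, 587 and 170 counts and Het males 21939, 3285 and 2707 counts, whereas all 6 KO livers were at 0. Bounds were set against a floor of 3 counts in each library and take the assignment of reads to Mup15 as given. By these bounds Mup15 was at least 99.9-fold lower in KO females and at least 3837-fold lower in KO males. Without Het_M_119 the second bound became 1205-fold, and without Het_F_115 the first became 64.3-fold. Mup15 passed the filter on low counts through Het livers alone. It could therefore be called only lower in KO, and its calls are a description. The adjusted p was 0.0447 in females and 0.0167 in males, and the female call was lost when any of the 3 Het or the 3 KO females was left out (adjusted p = 0.0668 to 0.13), without Het_M_125 (0.05) and with no filter on low counts (0.138). The male call was lost with no filter (0.0668) and with males fitted alone (0.0731). Only 17.0% of the read-length windows of Mup15 are its own, and the part of the sharing of reads in these counts of 0 was not tested.

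Mup12, Mup14 and Mup16 fell in both sexes as well. The mean level of Mup14 went from 19.5 ± 2.44 TPM (SD, n = 3) in Het females to 0.859 ± 1.21 TPM in KO females and from 732 ± 519 TPM in Het males to 4.48 ± 0.727 TPM in KO males (log2 fold changes -4.31 and -7.04, adjusted p = 0.0174 and 0.00307). The female call of Mup14 was lost without KO_F_108 (adjusted p = 0.0501) and with females fitted alone (0.0681), and its fold change there was -6.33 without KO_F_123. For Mup16 the means were 37.6 ± 18.1 and 0.759 ± 0.298 TPM in Het and KO females and 233 ± 181 and 1.55 ± 0.656 TPM in Het and KO males (log2 fold changes -5.24 and -7.18, adjusted p = 0.00599 and 0.00137). Mup12 was the lowest of the 3, with 25 to 113 counts in Het females and 0, 2 and 5 counts in KO females (log2 fold change -3.98, SE 0.99, adjusted p = 0.0364). That call was lost in 8 of 23 alternatives, among them those without Het_F_111, Het_F_126, any KO female or KO_M_122 (adjusted p = 0.0505 to 0.132). In males Mup12 had a log2 fold change of -6.25 (SE 0.87, adjusted p = 0.00408), which was -6.88 without KO_M_118. Without Het_M_119 the male values were -5.28 for Mup12, -6.24 for Mup14 and -6.23 for Mup16.

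Mup1 was the exception among the close copies. Het females held 51, 15 and 61 counts and KO females 3, 50 and 120 counts, and these groups overlapped. Het males held 6986, 1558 and 1817 counts and KO males 40, 1536 and 1963 counts. KO_M_122 and KO_M_136, at 40.6 and 54.0 TPM, stood near the 51.8 and 64.7 TPM of 2 of the Het males, while KO_M_118, at 0.969 TPM, lay in the range of Het females. The log2 fold change was 0.61 in females (SE 1.34, adjusted p = 0.809) and -1.74 in males (SE 1.21, adjusted p = 0.432), with standard errors larger than those of most other members. In KO_M_122 and KO_M_136, Mup1 made up 11.1 and 29.9% of the summed TPM of the 10 genes, against 0.483 to 1.38% in Het males. Outside the 10 genes, Mup2 ranged from 0.518 to 36.7 TPM in KO males and from 4.88 to 36.6 TPM in Het males. Only 23.5% of the read-length windows of Mup1 are its own, and the part of the sharing of reads in its values was not tested.

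Summed over the 7 close copies, the value does not depend on how reads were split among these 7. Their sum was 151.3 to 195 CPM in Het females, 3.40 to 16.2 CPM in KO females, 2891 to 9555 CPM in Het males and 41.1 to 75.2 CPM in KO males. That is 19.8-fold lower in females (log2 fold change -4.30, SE 0.66) and 83.6-fold lower in males (-6.39, SE 0.72). Het_M_119 stood apart: each of the 7 copies was 3.01 to 7.55 times the mean of the other 2 Het males there, whereas Mup3, Mup20 and Mup21 were 0.984 to 1.28 times that mean. Without this liver the male difference of the summed copies was 47.6-fold, and without KO_F_123 the female difference was 34.8-fold.

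Mup3, whose read-length windows are all its own, fell in both sexes. Its level was 808, 877 and 891 TPM in Het females and 4.54, 14.0 and 21.9 TPM in KO females. In males it was 4147, 3476 and 3371 TPM in Het and 116, 74.6 and 26.3 TPM in KO. The livers of each group lay close together in Het and spread over several fold in KO. The log2 fold change was -5.89 in females (SE 0.69, adjusted p = 0.00226) and -5.76 in males (SE 0.68, adjusted p = 0.0014), and the difference between these effects was 0.14 (SE 0.77, adjusted p = 0.971). All 24 alternatives kept the call in females and in males.

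Mup20, the darcin gene, did not follow Mup3 in females. Its level was 58.7, 57.9 and 99.9 TPM in Het females and 51.6, 88.9 and 179 TPM in KO females, with overlapping ranges (log2 fold change 0.64, SE 0.71, adjusted p = 0.604). In males it was 3907, 4380 and 4024 TPM in Het and 766, 224 and 74.6 TPM in KO. All KO males lay below all Het males, with KO_M_136 within the range of females. The fall in males was 12.4-fold (log2 fold change -3.63, SE 0.78, adjusted p = 0.0246), and leaving out any Het male or KO_M_122 raised the adjusted p above the threshold of 0.05 (0.0542 to 0.078), as did using no filter on low counts (0.0671) or the males alone (0.069). Without KO_M_118 the male log2 fold change was -4.85. Over both sexes the log2 fold change of -1.50 (SE 0.51) did not pass (adjusted p = 0.0613). It did pass without KO_M_118 (log2 fold change -2.11, adjusted p = 0.00889) and without KO_F_123 (0.0458), by DESeq2 (0.0189), with limma on log2(TPM + 1) (0.0287) and log2(TPM + 0.1) (0.0348), and with no robust estimation (0.0438), which makes 6 of 23 alternatives.

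Set side by side within a liver, these neighbours stood in another proportion in KO. The ratio of Mup3 to Mup20 TPM was 13.8, 15.1 and 8.92 in Het females and 0.088, 0.157 and 0.122 in KO females. In males it was 1.06, 0.794 and 0.838 in Het and 0.152, 0.333 and 0.352 in KO. No KO liver reached the ratio of any Het liver. Because Mup20 lies inside the annotated span of Mup3, unspliced reads from the shared interval could be assigned to the wrong gene. Of the read-length windows of annotated transcripts, 100% for Mup3 and 96.7% for Mup20 were found in no other Mup gene. The part of unspliced reads in the ratio was not tested.

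**Figure D2:**
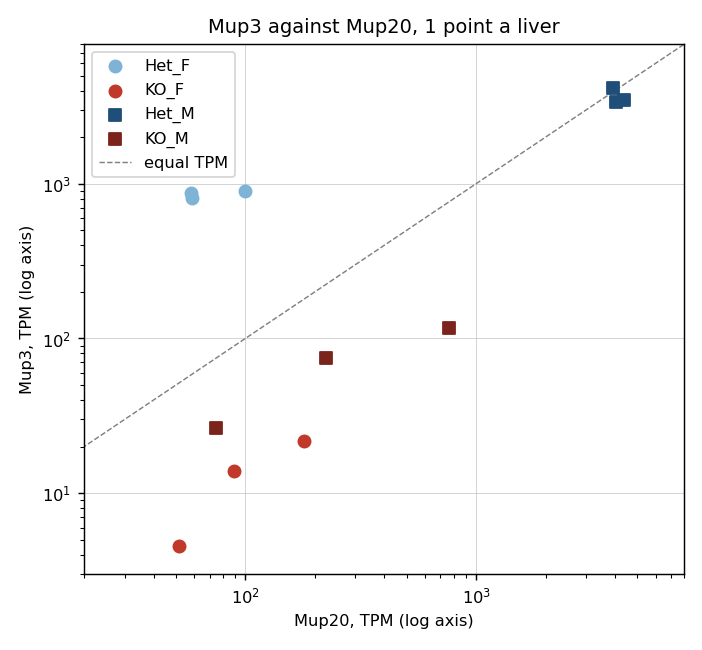
Level of Mup3 against that of Mup20 in TPM, both axes on a log scale, with 1 point a liver and a dashed line at equal TPM. Het females lie above the line at ratios of 8.92 to 15.1, Het males lie near it, and all 6 KO livers lie below it.

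Mup21 was called lower in males and over both sexes (log2 fold change over both -3.52, SE 0.48, adjusted p = 0.0013), but not in females. Its level was 2.95, 4.73 and 8.90 TPM in Het females and 1.81, 5.69 and 0.972 TPM in KO females, which overlapped (log2 fold change -0.84, SE 0.64, adjusted p = 0.428). In males it was 163, 170 and 115.3 TPM in Het and 2.64, 1.07 and 2.68 TPM in KO, a 73.4-fold fall (log2 fold change -6.20, SE 0.75, adjusted p = 0.00193). The KO males lay within the range of the KO females. After group means were subtracted, the r of Mup21 with the other members in log2 CPM over the 12 livers ran from -0.39 (Mup14) to 0.12 (Mup7). Low values were not particular to Mup21. The same r ran from -0.31 (Mup20) to 0.41 (Mup7) for Mup1 and from -0.20 (Mup20) to 0.39 (Mup16) for Mup15. The largest r of all pairs were 0.90 for Mup12 with Mup16, 0.89 for Mup3 with Mup20 and 0.85 for Mup11 with Mup14. These pairs share library, depth and, in part, sequence.

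**Figure D3:**
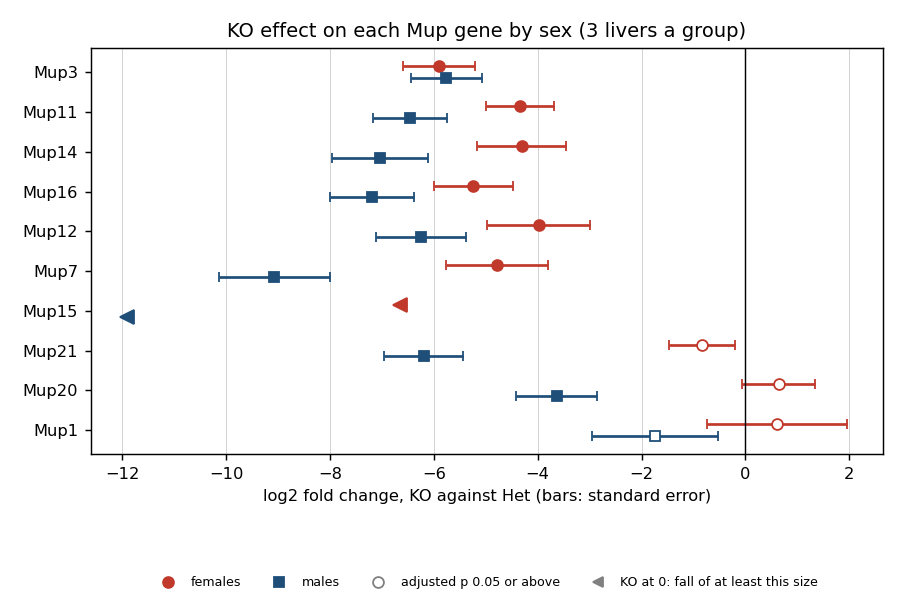
Fitted log2 fold change of KO against Het for each Mup gene, females as red circles and males as blue squares, with bars for the standard error, open symbols where the adjusted p was 0.05 or above and arrowheads at the smallest fall of Mup15 that a floor of 3 counts allows. In males 9 genes were called lower and in females 7, and open symbols mark Mup1 in both sexes and Mup20 and Mup21 in females.

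Because the genes fell by unequal amounts, the make-up of the remaining Mup mRNA changed. Mup3 gave 73.0 ± 2.17% (SD, n = 3) of the summed TPM of the 10 genes in Het females and 9.68 ± 2.42% in KO females, and Mup20 gave 6.07 ± 1.64% and 79.5 ± 2.81%. Among males, Mup20 took 23.2 to 40.9% of the Het sums and 41.4 to 81.8% of the KO sums, ranges that did not overlap but nearly met. Mup7 gave 11.6 to 21.8% in Het males and at most 2.15% in KO males. Without Mup20, the sum of the other 9 genes was 998 to 1112 CPM in Het females and 8.996 to 39.9 CPM in KO females, and 6644 to 14691 CPM in Het males and 105 to 168 CPM in KO males. This sum, chosen after seeing the data, was 41.2-fold lower in females (log2 fold change -5.36, SE 0.54) and 67.2-fold lower in males (-6.07, SE 0.56).

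**Figure D4:**
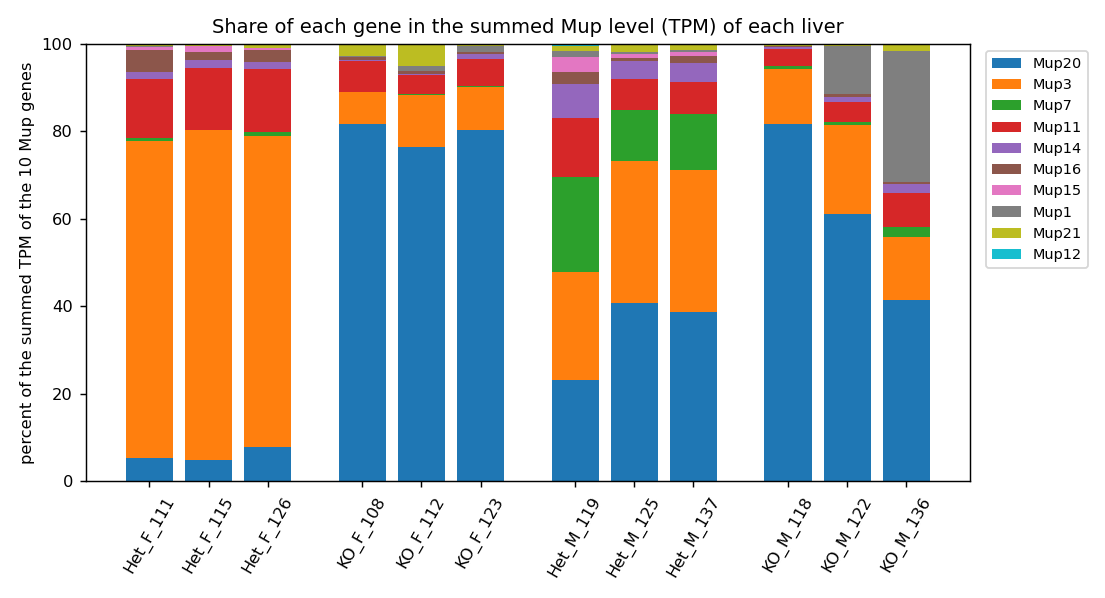
Share of each gene, in percent of the summed TPM of the 10 Mup genes, in each of the 12 livers as stacked bars that add to 100%. Mup3 fills most of each Het female bar and Mup20 most of each KO female bar, and Mup1 takes 11.1 and 29.9% in KO_M_122 and KO_M_136.

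The order of the genes by mean TPM differed between the groups. In Het females Mup3 led with a mean of 859 TPM, then came Mup11 with 165 and Mup20 with 72.2, and none of these ranges overlapped with the next. Below them Mup16 with 37.6 and Mup14 with 19.5 TPM overlapped, and Mup15, Mup7, Mup21, Mup12 and Mup1, from 8.76 down to 1.34 TPM, each overlapped with the next. In Het males Mup20 with 4104 and Mup3 with 3665 TPM led, followed by Mup7, Mup11, Mup14, Mup15, Mup16, Mup21, Mup1 and Mup12 down to 48.7 TPM, and every gene overlapped with the next. In KO females Mup20 with 106 TPM stood clear of Mup3 with 13.5 TPM, which overlapped with Mup11 at 7.88 TPM. In KO males Mup20 with 355, Mup3 with 72.4, Mup1 with 31.8 and Mup11 with 22.4 TPM overlapped, each with the next, and all 4 ranges but that of Mup1 lay above Mup14 with 4.48 TPM.

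The difference between males and females was large in Het livers. The sum of the 10 genes was 12.7-fold higher in Het males than in Het females (log2 fold change 3.67, SE 0.63), and for all 10 genes every Het male lay above every Het female (7.46% of all genes lay so). The test called 6 of them higher in Het males, where 0.377% of all genes were called higher, and all 10 had an unadjusted p under 0.05. The called genes were Mup7 (log2 fold change 8.51, SE 1.04), Mup20 (6.02, SE 0.88), Mup14 (5.06, SE 0.84), Mup21 (4.93, SE 0.70), Mup12 (4.89, SE 0.80) and Mup11 (3.70, SE 0.62). Their adjusted p ran from 0.00447 to 0.0257. The count was 1 without Het_F_111, 1 without Het_F_115, 3 without Het_F_126, and 10 by DESeq2. Without Het_M_119 the differences were 7.77 for Mup7, 2.92 for Mup11, 3.90 for Mup12 and 4.25 for Mup14, all still called, and without Het_F_126 that of Mup7 was 9.19.

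In KO livers the sum was 3.77-fold higher in males (log2 fold change 1.91, SE 0.59), but the groups overlapped, as KO_M_136 lay below KO_F_123, and without KO_M_118 the difference was 2.10-fold. None of the 10 genes was called by edgeR, where 0.0465% of all genes were called higher, but 7 had an unadjusted p under 0.05 and DESeq2 called 3, Mup1, Mup3 and Mup7. Without KO_F_123 edgeR called 1, Mup14 (4.35, adjusted p = 0.0193). For 5 genes, Mup3, Mup7, Mup11, Mup12 and Mup14, every KO male lay above every KO female (8.65% of all genes). Mup3 differed by 2.43 on the log2 scale between KO males and KO females (SE 0.59, adjusted p = 0.214), close to its 2.29 in Het (SE 0.58, adjusted p = 0.139).

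Whether the KO effect differed between the sexes was tested with the interaction term. None of the 10 genes passed in edgeR, where 0.0465% of all genes were called in either direction, and 5 had an unadjusted p under 0.05. DESeq2 called Mup20 (difference of the log2 fold changes, males minus females, -4.29, adjusted p = 0.00583) and Mup21 (-5.44, adjusted p = 7.4e-08). By edgeR these differences were -4.27 (SE 1.04, adjusted p = 0.316) and -5.36 (SE 0.94, adjusted p = 0.115). The call for these genes thus depended on the tool. Without KO_F_123 edgeR called 1 member, Mup21 (-5.78, adjusted p = 0.0312).

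Of the 39 other Mup rows, 14 were tested, and 2 were called lower in KO females, 7 in KO males and 10 over both sexes, with none called higher, against 4.90, 2.90 and 10.3% of all genes called lower. Mup22 was the most abundant of them, with 799 to 1147 TPM in Het females, a mean of 94.5 in KO females, 1112 to 1542 in Het males and 226 to 270 in KO males. It was lower in KO of both sexes (log2 fold changes -3.33, SE 0.50, and -2.56, SE 0.49, adjusted p = 0.00546 and 0.0134). The male call was lost without KO_M_118 (0.0516) or KO_M_136 (0.0503), and the female value was -4.36 without KO_F_123. Its difference between Het males and Het females was 0.64 on the log2 scale (SE 0.46, adjusted p = 0.696). Mup19 had means of 109, 13.3, 470 and 13 TPM in Het females, KO females, Het males and KO males, and Mup17 means of 9.61, 0.698, 150.8 and 0.518 TPM. Both were called lower in males (log2 fold changes -4.93 and -8.17, adjusted p = 0.019 and 0.0121), with values of -4.04 and -6.29 without Het_M_119. The call of Mup19 was lost without any single KO male (0.0579 to 0.0691) and that of Mup17 without KO_M_118 (0.0545). Mup10 was called lower in both sexes (log2 fold changes -3.18 and -2.64), but the female call was lost without KO_F_108 (adjusted p = 0.054), its value was -4.71 without KO_F_123, and the male call was lost without any 1 of the 6 males (0.068 to 0.11). Mup18 was called only in the test over both (-4.91, adjusted p = 0.0149), with -6.10 without KO_F_123 and -6.34 without KO_M_136. Mup2 had means of 3.53 and 6.79 TPM in Het and KO females and of 16.4 and 22.7 TPM in Het and KO males. For Mup9 these were 2.04, 5.37, 14.7 and 17.0 TPM, and neither gene was called in any comparison of KO with Het. The remaining expressed rows, Mup8, Mup-ps16 and Mup-ps19, were at or below 3.37 TPM in every group mean. With all 49 rows summed, the log2 fold change was -3.10 in females (SE 0.52) and -4.32 in males (SE 0.55).

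Genes next to the cluster were compared in the same way. Of 19 protein-coding genes within 500 kb of either end, 16 were tested, and over both sexes 4 were called lower and 1 higher, with log2 fold changes from -0.85 to 0.51, where 10.3% of all genes were called lower and 11.4% higher. The smallest p was that of Hsdl2, a peroxisomal hydroxysteroid dehydrogenase-like gene, with a log2 fold change of -0.78 (SE 0.18, adjusted p = 0.0102). In females 3 were called lower, beside 4.90% of all genes (log2 fold changes of the 16 from -1.08 to 0.28), and in males none was called by edgeR (from -0.67 to 0.84).

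Growth hormone signalling genes, the known upstream route, changed in both directions: of 15 tested, 4 were called higher and 3 lower over both sexes, with a median log2 fold change of -0.12 beside 0.01 over all genes, of which 11.4% were called higher and 10.3% lower. Ghr, the growth hormone receptor, ranged from 304 to 469 CPM in Het females and 74.2 to 322 CPM in KO females, and from 517 to 587 CPM in Het males and 134 to 214 CPM in KO males. It fell over both sexes (log2 fold change -1.40, SE 0.30, adjusted p = 0.00868) and in males (-1.65, SE 0.43, adjusted p = 0.0437), while females gave -1.16 (SE 0.42, adjusted p = 0.102). The male call was lost without any 1 of the 6 males or the 3 Het females (adjusted p = 0.0501 to 0.142), and females without KO_F_112 gave -1.93 (0.0113). Stat5b mRNA rose by 0.49 on the log2 scale (SE 0.10, adjusted p = 0.00525). Igf1, a growth hormone target that encodes the main circulating growth factor, did not pass (-0.28, SE 0.14, adjusted p = 0.177). Cux2, a repressor normally seen in female liver, was at 0.476 to 0.831 CPM in Het males and at 20.2 to 46.3 CPM in KO males (log2 fold change 5.64, SE 0.60, adjusted p = 0.000858), beside 19.4 to 42.1 CPM in Het females and 32.1 to 120 CPM in KO females.

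Of 15 liver transcription factors and hormone receptors, 6 were called lower and 1 higher over both sexes, with a median log2 fold change of -0.25, against the same 10.3 and 11.4% of all genes. Cebpa, which encodes a factor needed for many hepatocyte genes, fell (log2 fold change -1.11, SE 0.15, adjusted p = 0.000624), as did Foxa1 (-1.02, SE 0.23, adjusted p = 0.00921). Esr1, the oestrogen receptor, was called higher over both sexes (0.91, SE 0.15, adjusted p = 0.00216). In males it was at 14.5 to 18.8 CPM in Het and 40.6 to 58.4 CPM in KO. Its ranges overlapped in females, at 47.3 to 81.1 CPM in Het and 61.4 to 92.1 CPM in KO. None of the 15 was called higher in females. Zhx2, a regulator of liver genes including some Mup genes, fell in males (-0.81, SE 0.16, adjusted p = 0.0148, but 0.0504 without Het_M_125 and 0.0539 without Het_M_137) and had 0.01 in females (SE 0.16, adjusted p = 0.964).

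Of 17 male-biased genes tested, 10 fell in KO males and none rose, with a median log2 fold change of -2.76, while in females 4 fell and 2 rose (median -0.40). Of all genes, 2.90% were called lower and 4.01% higher in males, and 4.90 and 4.93% in females. Elovl3, a fatty acid elongase, fell by 5.65 on the log2 scale in males (SE 0.65) and Cyp7b1, a steroid hydroxylase, by 2.93 (SE 0.34). Nudt7, a peroxisomal coenzyme A hydrolase, fell by 3.94 (SE 0.45). Of 27 female-biased genes, 17 rose in KO males and none fell (median 5.64), whereas in females 1 rose and 2 fell (median 0.16). Cyp2a4, a steroid hydroxylase, rose in KO males by 9.97 on the log2 scale (SE 0.49). Sex-biased genes were listed with results of these data known, so their direction is a description. Of the other lipocalins of the liver, 9 were tested, and 4 were called higher and 2 lower over both sexes. In that test 11.4% of all genes were called higher and 10.3% lower. Orm2 (log2 fold change 3.46, SE 0.30), Lcn2 (4.66, SE 0.48) and Orm1 (0.81, SE 0.12), all acute phase proteins, were called higher over both sexes. Each was also called in females and in males, but the male call of Orm1 was lost without any 1 of the 6 males (adjusted p = 0.0572 to 0.127).

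The genes whose level was most like that of the Mup sum over the 12 livers, by Pearson r of log2 CPM, were Ces3b (r = 0.98), Cyp4v3 (0.97), Scp2 (0.97), Lap3 (0.96) and Nudt7 (0.96). These were selected as the largest of all genes tested, and the r is set largely by the 4 groups. Their log2 fold changes of KO against Het over both sexes were -1.32 for Ces3b, -0.93 for Cyp4v3, -1.15 for Scp2, -0.69 for Lap3 and -3.20 for Nudt7, beside -3.88 for the Mup sum. After group means were subtracted the largest r were those of Phf2os1 (0.93), Slc25a10 (0.91), Mrps18a (0.90), Gprc5c (0.89) and Notch3 (0.89), of which only Mrps18a was called in KO against Het (-0.33, SE 0.09, adjusted p = 0.0188).

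Markers of other cell types were summed in the same livers. The summed level of 7 stellate cell and fibroblast markers was 262 to 473 CPM in Het livers and 127 to 277 CPM in KO livers, with 3 of 7 called lower. The 6 endothelial markers summed to 163 to 302 CPM in Het and 117 to 205 CPM in KO, with 3 called lower. The 7 Kupffer cell and macrophage markers summed to 120 to 295 CPM in Het and 148 to 452 CPM in KO, with 3 called higher. Cholangiocyte markers, 6 genes, summed to 30.4 to 60.3 CPM in Het and 16.5 to 52.1 CPM in KO, and 7 lymphocyte and neutrophil markers to at most 4.23 CPM. Kidney tubule markers, 5 genes with 1 at 0 throughout, stayed at or below 2.73 CPM in every liver and pancreas acinar markers at or below 17.7 CPM, with 3 of 5 at 0 throughout. Among cholangiocyte markers 1 gene was called higher, as was 1 lymphocyte and neutrophil marker, while 1 kidney and 1 pancreas marker were called lower. Calls were those over both sexes, where 10.3% of all genes were called lower and 11.4% higher. The part of these cell types in the Mup result was not tested.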

How the data were processed

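Liver RNA was extracted with TRIzol, ribosomal RNA was removed, and stranded paired-end reads were made. The authors aligned the reads to GRCm39 with STAR 2.7.9a and estimated counts per gene with Salmon 1.10.1 (versions per the labels). The 4 deposited tables hold estimated counts, counts rebuilt by the authors' pipeline from TPM with library size alone or with mean transcript length as well (used only as alternatives), and TPM. Reads that fit several Mup copies were divided among them by Salmon, which can move counts between near copies, the 39 other Mup rows included. Of the estimated counts, 12% were not whole, and all were rounded. Tested were genes that reached 5 reads in 3 or more livers once libraries were brought to their median size, using edgeR 4.0.16 (TMM, robust quasi-likelihood fit, prior count 2, 1 mean a group, 12 livers), and p-values were adjusted by Benjamini-Hochberg over all 19355 genes with a threshold of 0.05. CPM used the effective library sizes. Each SE from edgeR is the absolute log2 fold change divided by the square root of the F statistic. Such SEs are approximate, above all at low counts. Sums were entered as 1 row in place of their genes, with no p. Each log2 fold change of KO against Het is negative where KO is lower. Where KO was at 0 in all libraries, bounds used a floor of 3 counts in each library, which covers counting error only.

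Named were the 10 members, other Mup rows with a mean above 1 TPM in some group, the 3 genes of smallest p over both sexes in each list with Ghr, Stat5b, Igf1 and Zhx2, the 5 genes most like the Mup sum by each measure, and the neighbour with the smallest p. Of these, 1 gene is not reported here. The members, lists and markers were chosen with earlier results of these data known. All replicate pairs differed by far more than sampling noise (chi-square of 61.2 or more per gene). The 8 hepatocyte markers included 1 symbol absent from the table. Coding sequences and windows came from GENCODE M39 transcripts (Biopython 1.88) and promoters from RefSeq. Promoters of Mup1, Mup12, Mup16 and Mup20 were not used here. The test was checked on simulated counts. Alternatives used DESeq2 1.42.0 and limma 3.58.1 on log2(TPM + 1) and log2(TPM + 0.1).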

Additional observations from a re-analysis of the deposited data

Results flagged for a closer look

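Among the genes named in the text, the KO effect of Cyp2a4, a female-biased gene in liver, differed between the sexes by the interaction term. In males it exceeded that in females, on the log2 scale, by 9.02 (SE 0.55, adjusted p = 3.56e-05). No Mup gene met this test in edgeR. With 3 livers in each group, single livers that stand apart could not be tested.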

How the results depend on the processing

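No paired analysis was possible because no mice share a number. With 12 livers left out in turn, the number of members called lower ranged from 3 to 7 in females, and with at least 10 counts required in every liver it was 3 in females, 5 in males and 4 over both sexes, since fewer members are then tested. The interaction count, 0 as reported, was 2 by DESeq2, 2 with limma on log2(TPM + 1) and 1 with no robust estimation, and leaving out 1 liver gave 0 to 1. The Het sex count, 6 as reported, was 10 by DESeq2, 3 with no filter and 3 with 10 counts in every liver, and 1 to 7 with 1 liver left out. The KO sex count, 0 as reported, was 3 by DESeq2 and 0 to 1 with 1 liver left out. Without Mup20, a choice made after seeing the data, the summed log2 fold change was -5.36 in females and -6.07 in males. Under all other alternatives run, the sum stayed between -3.56 and -2.64 in females and between -5.61 and -4.32 in males. Mup1 in females, called under none of its alternatives, changed sign to -0.0199 and -0.36 with limma on log2(TPM + 1) and log2(TPM + 0.1) and to -0.34 without KO_F_123, and ran from -0.34 to 1.14 with 1 liver left out. Mup3, Mup11 and Mup16 kept their calls in both sexes under all alternatives run. Depth limits the low copies in KO livers: Mup15 is at 0 in all 6, and Mup12 has 0, 2 and 5 counts in KO females. Leaving out single livers for the sums of close copies, for sex differences and for genes other than the members was chosen after seeing the data.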
